A study of Mus musculus with 2 samples.

Results

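Foxd3, Erbb3, Fabp7, Ednrb, Tfap2a, Tfap2b and Ret are 7 genes of the neural crest and of the Schwann cell precursors that arise from it, and they were chosen by symbol from the 21937 gene features measured. They were followed as unique molecular identifiers (UMIs, counts of captured transcripts) and as shares of cells through every annotated cell type of mouse embryos at E11.5. The embryos were transgenic for a piggyBac transposon that carries a DNA barcode and EGFP under the CAG promoter. F0_8 and F0_9 were founders, each a single embryo made by electroporating mRNA for the mPBase transposase and microinjecting donor DNA, F1_1 was a separate embryo of the F1 generation, and for F1_mix cells of F1 embryos were mixed into an artificial mosaic. Cells of the 4 suspensions were tagged with CellPlex oligonucleotides, pooled and captured in droplets together, so 2 founder suspensions were set against 2 F1 suspensions. All 4 carried the transgene, and no embryo without it was measured. Nothing in the labels makes these suspensions replicates of one treatment, and every p-value below measures only the spread between them.

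The neural crest leaves the dorsal neural tube and gives rise to peripheral neurons, glia, pigment cells and, in the head, to mesenchyme. Foxd3 and the AP-2 factors Tfap2a and Tfap2b act early in its specification, while Ednrb, Erbb3 and Ret are receptors through which its derivatives respond to endothelin 3, neuregulin 1 and the GDNF family. Schwann cell precursors travel along nerves, depend on signalling through ErbB3 and express the fatty acid binding protein Fabp7, and a part of the melanocytes arises from them. Sox10, which is not among the 7 genes, encodes a transcription factor that crest cells keep in their glia and pigment cells and is also expressed in the otic epithelium and in developing cartilage and glands.

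On the mouse assembly GRCm38, Foxd3 (ENSMUSG00000067261) lies at chr4:99656299-99658671, Erbb3 (ENSMUSG00000018166) at chr10:128567523-128589635 and Fabp7 (ENSMUSG00000019874) at chr10:57784923-57788450. Ednrb (ENSMUSG00000022122) lies at chr14:103814615-103844508 and Ret (ENSMUSG00000030110) at chr6:118151748-118197744. Tfap2a (ENSMUSG00000021359) lies at chr13:40713802-40738238 and Tfap2b (ENSMUSG00000025927) at chr1:19208908-19238845. RefSeq promoter sequences of GRCm38.p6 matched 5 of the 7 genes with 6 start sites, and Erbb3 and Ret had no entry. The 250 bases before each start were searched on both strands for the SOX core ACAAT, the SOX core ACAAAG and the AP-2 palindrome GCCNNNGGC, because Sox10 and the AP-2 factors are the transcription factors whose transcripts are set against the other genes below. The windows that held one are printed 5′ to 3′ on the strand of the gene, with the motif in capitals: Tfap2b (chr1:19211804-19212053, plus strand) and Fabp7 (chr10:57784673-57784922, plus strand, as ATTGT, which is ACAAT on the other strand) held the first, and Ednrb (chr14:103843702-103843951, minus strand) held the third.
Tfap2b: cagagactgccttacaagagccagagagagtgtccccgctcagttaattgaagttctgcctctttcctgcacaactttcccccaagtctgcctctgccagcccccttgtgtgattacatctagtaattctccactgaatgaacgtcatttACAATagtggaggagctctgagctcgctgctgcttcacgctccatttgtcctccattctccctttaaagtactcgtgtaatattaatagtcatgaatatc
Fabp7: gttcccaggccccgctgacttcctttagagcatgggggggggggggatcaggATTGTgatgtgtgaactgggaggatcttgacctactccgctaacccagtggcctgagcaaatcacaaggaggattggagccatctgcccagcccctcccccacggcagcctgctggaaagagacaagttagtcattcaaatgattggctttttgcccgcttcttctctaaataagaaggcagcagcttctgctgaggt
Ednrb: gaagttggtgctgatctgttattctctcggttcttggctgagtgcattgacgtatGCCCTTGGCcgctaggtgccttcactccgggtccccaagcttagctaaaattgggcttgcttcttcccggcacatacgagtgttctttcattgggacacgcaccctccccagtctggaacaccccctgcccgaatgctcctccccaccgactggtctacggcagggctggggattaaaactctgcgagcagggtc
ACAAT was present in 2 of the 6 windows and in 27.7% of 32851 RefSeq promoter windows of the same length, ACAAAG in 0 of 6 and in 16.5%, and GCCNNNGGC in 1 of 6 and in 13.7%. The window of Foxd3 at chr4:99656049-99656298 and both windows of Tfap2a held none of these letters. A match of this kind is a description of the sequence.

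The authors' cell table placed 5678 cells in 16 types, with 1310 to 1599 cells and 16052917 to 19160116 gene UMIs per suspension and median depths of 10880 to 13267 UMIs per cell. No cell barcode was shared between suspensions. In 12 types the median depth was 10898.5 to 29076 UMIs, and in the other 4 (Hepatocyte, Foregut, Midgut and Endodermal Progenitor, 1369 cells) it was 721.5 to 1674, so levels are described over the 12 deeper types. A level is the UMIs of a gene per 10000 gene UMIs, summed over cells, and it is compared between types for a single gene but not between genes. Erythroblasts and erythrocytes, which should lack all 7 genes, served as the background for shares of cells: of 204 such cells (median 27491.5 UMIs) between 0.490% (Foxd3, Ret) and 5.39% (Fabp7) held a UMI. In 1435345 droplets with 1 to 100 gene UMIs, the free RNA held all 7 genes at 0.00335 (Ret) to 2.41 (Fabp7) per 10000.

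Each of the 7 genes was concentrated in a few annotated types, and only a part of that expression lay in cells with Sox10. Ependymal Cell led for Foxd3, Erbb3 and Ednrb, Neuronal Progenitor for Fabp7, CNS Neuron for Tfap2a and Tfap2b, and Neuroectoderm/Glia for Ret. In F1_mix alone the first place went to CNS Neuron for Foxd3 and to Epithelial Cell for Erbb3 and Ret. Cells with a Sox10 UMI held 46.6% of the Erbb3 UMIs, 39.3% of Foxd3 and 33.5% of Ednrb. They held 13.0% of Fabp7, 9.41% of Tfap2a, 5.33% of Tfap2b and 2.99% of Ret. These cells are 2.32% of all cells.

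**Figure D1:**
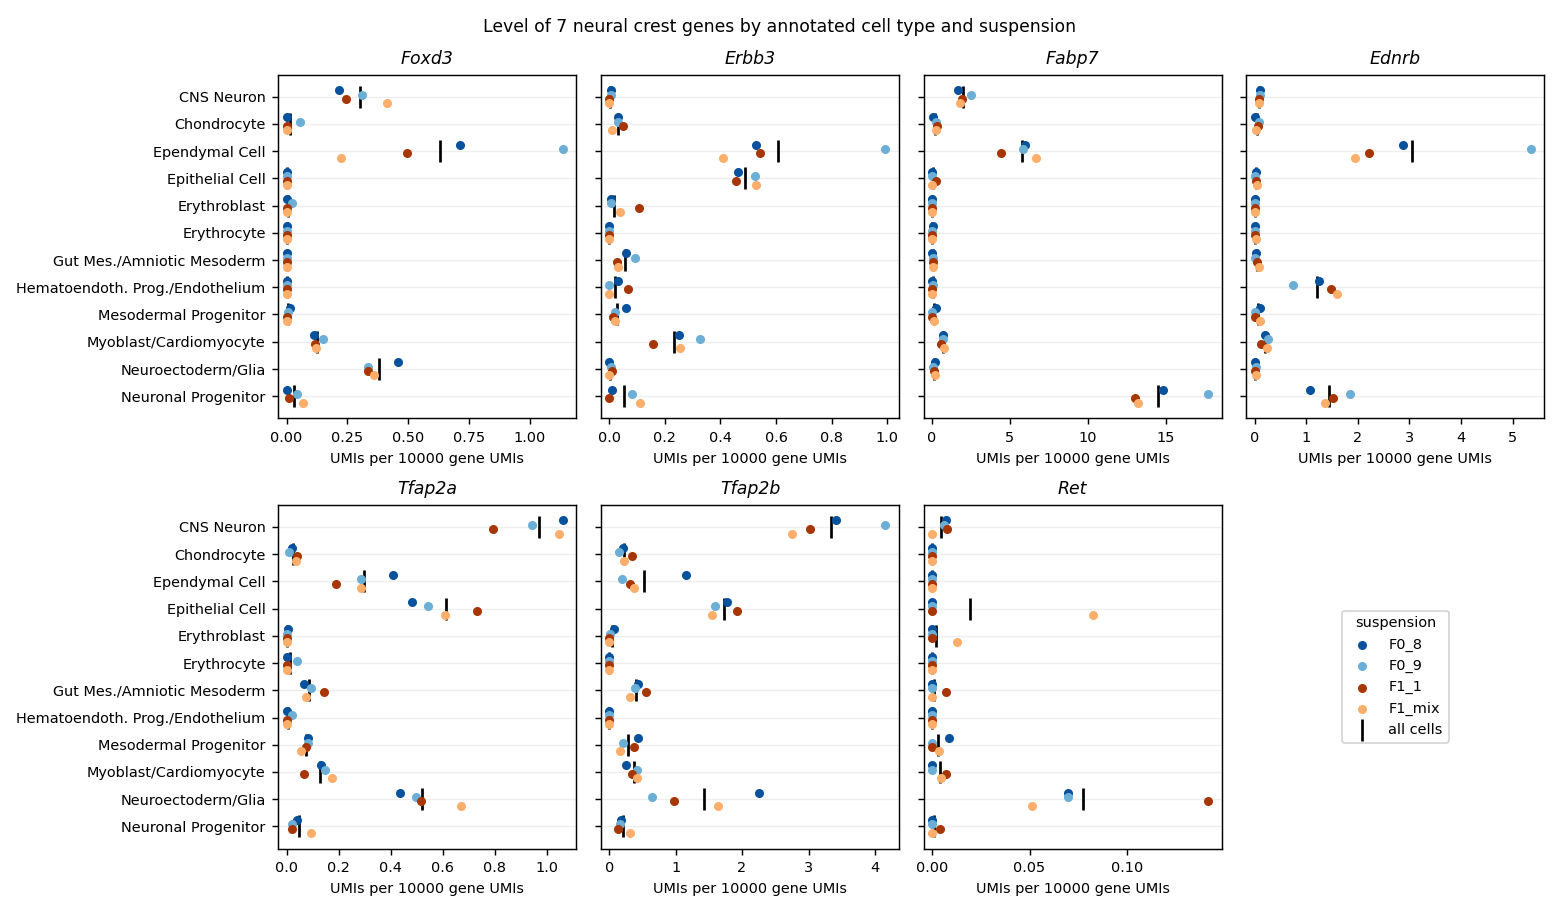
Level of each of the 7 genes (UMIs per 10000 gene UMIs, linear axis from 0, one panel per gene) in the 12 deeper annotated types; points are the 4 suspensions and black bars are the level over all cells of the type. Fabp7 stands at 14.5 in Neuronal Progenitor and 5.74 in Ependymal Cell, with the suspensions of both types apart, while the suspensions of Foxd3 in Ependymal Cell spread from 0.226 to 1.14.

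Foxd3, a forkhead repressor of early crest, gave 726 UMIs in 170 cells. Its level in Ependymal Cell was 0.713 and 1.14 in the founders F0_8 and F0_9 and 0.497 and 0.226 in F1_1 and F1_mix (0.630 over all cells, 95% Poisson interval 0.520 to 0.757). In Neuroectoderm/Glia it was 0.457, 0.336, 0.333 and 0.357 in the same order, which overlapped the range of Ependymal Cell. CNS Neuron followed at 0.303 over all cells and overlapped Neuroectoderm/Glia, and Myoblast/Cardiomyocyte stood below both at 0.123, with suspensions apart from those of CNS Neuron. A Foxd3 UMI was found in 16.8% of 137 Ependymal Cell, 10.2% of 502 Neuroectoderm/Glia and 7.89% of 532 CNS Neuron cells, at median depths of 12100, 11437.5 and 10898.5 UMIs, against 0.490% of the red cells. After every cell was thinned to 5000 UMIs the shares were 12.6%, 8.18% and 6.41%, against 0.495%. None of 151 Epithelial Cell cells held Foxd3, which allows a share of up to 1.99% of cells with a UMI.

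The Foxd3 cells of Neuroectoderm/Glia and CNS Neuron were mostly without Sox10, and Lhx1, Lhx5 and Pax2 were more often found in them, while Lbx1 of the same dorsal interneuron list was found less often. In Neuronal Progenitor, in contrast, 7 of the 9 Foxd3 cells held Sox10. In Neuroectoderm/Glia, 0 of 51 Foxd3 cells held Sox10, and 92.2% held Lhx1, a LIM factor of spinal interneurons, against 46.6% of the cells without Foxd3. Lhx5, its close relative, was found in 92.2% against 42.6% and the interneuron factor Pax2 in 52.9% against 21.3%, while Lbx1, a factor of the more dorsal interneurons, was found in 1.96% against 13.1%. The level of Lhx1, Lhx5 and Pax2 was higher, and that of Lbx1 lower, beside Foxd3 in 4 of 4 suspensions, and the median depths were 11777 and 11392 UMIs. In CNS Neuron, 2 of 42 Foxd3 cells held Sox10. Lhx1 was found there in 69.0% of Foxd3 cells against 33.5% of the others, and its level was higher in 4 of 4 suspensions. Lhx5 was found in 71.4% against 38.8%, with a higher level in 3 of 4, and Lbx1 in 2.38% against 17.8%, with a lower level in 4 of 4. The summed level of the 6 genes of this list was 12.01 beside Foxd3 and 7.95 without it, while Lbx1 alone was at 0.0182 against 0.462. Gad2, an enzyme of GABA synthesis, differed in direction between share and level: in Neuroectoderm/Glia it was found in 52.9% of Foxd3 cells against 40.6%, at a level of 2.38 against 2.96, and in CNS Neuron in 31.0% against 22.4%, at 1.07 against 1.25, with overlapping intervals. Tlx3, a selector of excitatory dorsal and sensory neurons, was at 0.0162 against 0.411 in Neuroectoderm/Glia and at 1.75 against 1.64 in CNS Neuron.

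Tfap2a and Tfap2b, the AP-2 factors of crest, epidermis and dorsal interneurons, had the same first 4 deep types in order, CNS Neuron, Epithelial Cell, Neuroectoderm/Glia and Ependymal Cell. The level of Tfap2a in CNS Neuron was 1.06 and 0.944 in the founders F0_8 and F0_9 and 0.794 and 1.05 in F1_1 and F1_mix, and in Epithelial Cell it was 0.482, 0.541, 0.732 and 0.610. These ranges did not overlap. The level of Tfap2b in CNS Neuron was 3.41, 4.16, 3.02 and 2.75, and in Epithelial Cell it was 1.77, 1.59, 1.92 and 1.55. In Neuroectoderm/Glia, the third in both orders, Tfap2a was at 0.521 over all cells and Tfap2b at 1.43, the latter between 0.643 in F0_9 and 2.25 in F0_8, a range that took in that of Epithelial Cell. A UMI of Tfap2a was found in 34.2% and of Tfap2b in 34.6% of CNS Neuron cells (26.6% and 31.3% after thinning), against 1.47% and 0.980% of the red cells.

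Tfap2b was found beside Tfap2a more often than without it in each of the 8 types compared. After thinning, 81.0% of the CNS Neuron cells with Tfap2a held Tfap2b, against 13.2% of those without it, and in Epithelial Cell the shares were 77.8% and 16.3%. In Neuroectoderm/Glia they were 56.1% and 8.04%, and in Myoblast/Cardiomyocyte 51.5% and 7.25%. The smallest share beside Tfap2a was 42.9% in Ependymal Cell, against 7.44%. Across 36 combinations of 9 types and 4 suspensions, which share a capture and differ in depth, the log2 levels of Tfap2a and Tfap2b had a Pearson correlation of 0.918, the highest of any gene compared for either of them.

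**Figure D2:**
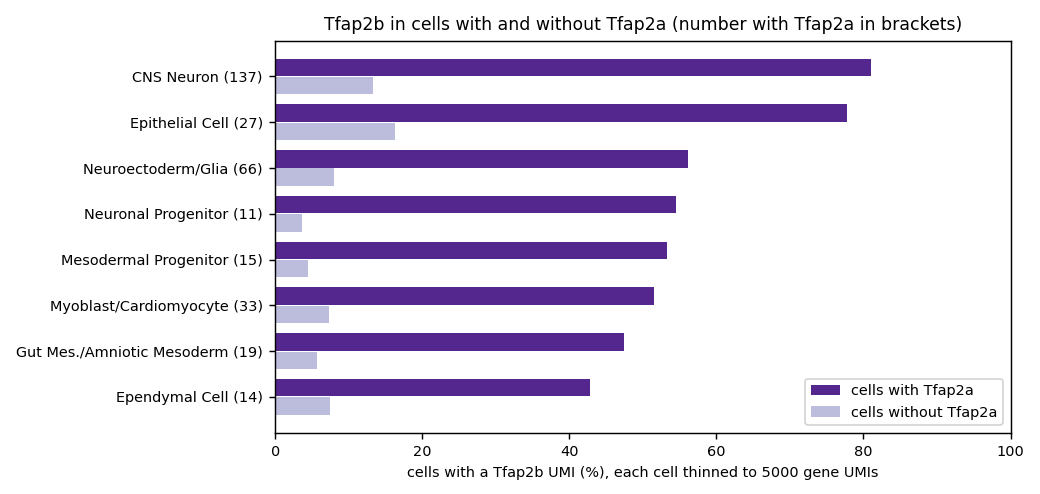
Percent of cells with a Tfap2b UMI among cells with and without a Tfap2a UMI in 8 annotated types, each cell thinned to 5000 gene UMIs; bars start at 0, dark bars are cells with Tfap2a, light bars cells without it, and the number of cells with Tfap2a, 11 to 137, is in brackets. Tfap2b was found beside Tfap2a in 42.9% (Ependymal Cell) to 81.0% (CNS Neuron) of cells, and without it in 3.63% to 16.3%.

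Within CNS Neuron, Lbx1 and Tlx3 were more often found in cells with an AP-2 gene than in those without. In these cells, the level of Tfap2b beside Tfap2a was 7.87, 11.2, 7.62 and 6.07 in F0_8, F0_9, F1_1 and F1_mix, against 0.761, 0.583, 0.485 and 0.595 in cells without Tfap2a. Lbx1 was found in 36.8% of the 182 Tfap2a cells against 6% of the others, and Tlx3 in 42.9% against 9.43%. Beside Tfap2b (184 cells) the shares were 34.2% against 7.18% for Lbx1 and 38.0% against 11.8% for Tlx3. Ptf1a, a selector of inhibitory dorsal interneurons, had 65 UMIs in 11.4% of the Tfap2b cells and 0 UMIs in the other CNS Neuron cells. The levels of Lbx1 and Tlx3 beside either gene, and of Ptf1a beside Tfap2b, were higher in 4 of 4 suspensions, and median depths were 10656 beside Tfap2a and 10935 without it. Of the genes described beside Foxd3, Lhx5 was at 2.53 against 1.67 and Pax2 at 3.49 against 1.99 beside Tfap2a, while Gad2 was at 1.11 against 1.30. Isl1, a LIM factor of motor and sensory neurons, was at 4.5 against 1.38 beside Tfap2a. Beside Foxd3 it was at 4.28 against 2.34 in CNS Neuron and at 0.0162 against 1.04 in Neuroectoderm/Glia.

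In Epithelial Cell the AP-2 genes lay in cells with basal keratinocyte genes. The level of Krt5, a keratin of the basal layer, was 3.37 in the 58 Tfap2a cells and 0.147 in the others, and Trp63, the basal epidermal regulator, was found in 91.4% against 33.3%. Krt5 stood at 3.40 in the 50 Tfap2b cells and at 0.429 in the others. Its level was higher beside either AP-2 gene in 4 of 4 suspensions, though the Tfap2a cells were the shallower, at a median of 15961 UMIs against 17921. The Erbb3 cells of the same type had another profile: Krt5 was at 1.31 in the 77 Erbb3 cells and 1.36 in the others, higher in 2 of 4 suspensions, while Krt8, a keratin of simple epithelium, was at 3.25 against 2.24, higher in 4 of 4.

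Erbb3, the neuregulin receptor that pairs with Erbb2, gave 695 UMIs in 299 cells. Its level in Ependymal Cell was 0.529 and 0.993 in the founders F0_8 and F0_9 and 0.544 and 0.410 in F1_1 and F1_mix, and in Epithelial Cell it was 0.462, 0.524, 0.455 and 0.527. These ranges overlapped, so the first place is not beyond the spread between suspensions. In Myoblast/Cardiomyocyte it was 0.251, 0.326, 0.156 and 0.256, below both, and the other deep types stood at 0.0574 or less. Erbb3 was found in 24.1% of Ependymal Cell (12.6% thinned), 51.0% of Epithelial Cell (24.7% thinned) and 14.4% of Myoblast/Cardiomyocyte cells (7.66% thinned), at median depths of 12100, 16938 and 18369. The share in the red cells was 3.43%, or 0.495% thinned.

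The Erbb3 cells of the Myoblast/Cardiomyocyte type included cells with Sox10 and cells with muscle genes. Of 93 cells with Erbb3, 28 held Sox10 and had 0 UMIs of the muscle genes Myod1, Myog, Tnnt2 and Ttn. The 65 without Sox10 held 2995 UMIs of these genes, 19.9 per 10000, and 42 of them (64.6%) held at least 2 of the 4, which leaves 23 with neither Sox10 nor 2 muscle genes. The 544 cells with neither gene had the muscle genes at 0.694, and 4.41% of them held at least 2. By suspension the share of muscle cells among Erbb3 cells without Sox10 was 75% and 71.4% in F0_8 and F0_9 and 50% and 60.9% in F1_1 and F1_mix. Median depths were 24714 and 22736, against 17672 in cells with neither.

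Ednrb, the endothelin receptor of crest and melanoblasts, was highest in Ependymal Cell, at 2.87 and 5.34 in the founders F0_8 and F0_9 and 2.22 and 1.95 in F1_1 and F1_mix. Neuronal Progenitor followed at 1.08, 1.84, 1.52 and 1.36, below all of these, and Hematoendothelial Progenitor/Endothelium at 1.24, 0.751, 1.49 and 1.59, which overlapped Neuronal Progenitor. Myoblast/Cardiomyocyte stood at 0.203 over all cells. A UMI was found in 43.1%, 52.8% and 51.3% of the cells of the first 3 types (31.9%, 37.4% and 32.0% thinned), against 0.980% of the red cells. In the hematoendothelial type, the 39 Ednrb cells and the 37 others differed in 3 of 4 macrophage genes, at median depths of 17008 and 17718. Csf1r, C1qa, C1qb and Ptprc, which mark macrophages, summed to 29.1, 31.2, 29.0 and 35.4 in the Ednrb cells of F0_8, F0_9, F1_1 and F1_mix and to 6.02, 14.3, 0.947 and 37.4 in the others. The sum was higher beside Ednrb in 3 of 4 suspensions and lower in F1_mix. Over all cells Csf1r, C1qa and C1qb were at 4.98, 8.35 and 16.3 beside Ednrb and 2.08, 3.18 and 6.64 without it. Ptprc, in contrast, was at 1.93 against 2.12, with overlapping intervals. The endothelial genes Pecam1, Cdh5, Kdr and Tie1 summed to 4.95 beside Ednrb and 5.98 without it, higher in 2 of 4 suspensions.

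Ret, the receptor of the GDNF family that enteric crest and motor neurons share, was sparse, with 67 UMIs in 37 cells. Of these, 46 UMIs lay in 21 Neuroectoderm/Glia cells (4.18% of the type, 2.04% thinned, against 0.490% of the red cells). The level there was 0.0699 and 0.0695 in the founders F0_8 and F0_9 and 0.141 and 0.0510 in F1_1 and F1_mix. Motor neuron genes were at a higher summed level beside Ret, though each was found in 7 or fewer of the 21 cells: Mnx1, Isl1, Isl2, Chat, Slc18a3 and Slc5a7 summed to 4.16, 1.83, 10.3 and 8.28 beside Ret in the same order, against 0.506, 0.669, 1.45 and 2.14 without it. The 2 sets of values overlapped across suspensions, and within each suspension the Ret cells were higher, in 4 of 4. Isl1 was found in 33.3% against 8.94%, and Chat, the enzyme that makes acetylcholine, in 23.8% against 3.12%, at median depths of 14596 and 11361 UMIs. The co-receptor Gfra1 was found in 47.6% against 39.7%, but its level was 0.601 (95% Poisson interval 0.372 to 0.919) beside Ret and 1.13 (1.05 to 1.23) without it. Only 2.99% of Ret UMIs lay in cells with Sox10, and in Epithelial Cell 5 UMIs came from 1 cell of F1_mix.

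Fabp7, a fatty acid binding protein of radial glia and of Schwann cell precursors, gave 15835 UMIs in 1175 cells and was foremost a gene of the Neuronal Progenitor type. Its level there was 14.8 and 17.7 in the founders F0_8 and F0_9 and 13.0 and 13.2 in F1_1 and F1_mix, and in Ependymal Cell it was 5.95, 5.82, 4.40 and 6.65. CNS Neuron stood at 1.99 and Myoblast/Cardiomyocyte at 0.701 over all cells, and the first 5 deep types in this order did not overlap between neighbours. Fabp7 was found in 87.6% of Neuronal Progenitor cells (81.0% thinned) against 5.39% of the red cells (1.49% thinned).

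The annotation has no neural crest type, and the cells with Sox10 lay in 13 of the 16 types. Sox10 had 549 UMIs in 132 cells, of which 44 held 1 UMI and 88 held 2 or more. None of the 204 red cells held it, which allows a share of up to 1.47% of cells with a UMI. Myoblast/Cardiomyocyte held 35 of the 132 cells (26.5%, exact 95% interval 19.2 to 34.9%) and Ependymal Cell 31 (23.5%, 16.5 to 31.6%). Epithelial Cell held 16, Neuronal Progenitor 13, CNS Neuron 12 and Gut Mesenchyme/Amniotic Mesoderm 10, and 7 other types held 15 in all. Of the 88 cells with 2 or more Sox10 UMIs, these 4 types held 13, 10, 4 and 3 in the same order. After thinning they held 4, 7, 5 and 7 of 77 Sox10 cells.

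The suspensions divided these cells differently between the first 2 types. Myoblast/Cardiomyocyte held 3 and 7 Sox10 cells in F0_8 and F0_9 and 12 and 13 in F1_1 and F1_mix, while Ependymal Cell held 11, 9, 5 and 6. Of the cells in both types together, 78.6%, 56.25%, 29.4% and 31.6% were in Ependymal Cell, a mean of 67.4% in the founders and 30.5% in F1. The groups did not overlap, and a two-sided exact permutation test gave p = 0.333, the smallest that 2 suspensions against 2 allow. As a share of the type, 27.5%, 28.1%, 15.6% and 18.2% of Ependymal Cell and 3.03%, 6.09%, 5.71% and 5.91% of Myoblast/Cardiomyocyte cells held Sox10.

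**Figure D3:**
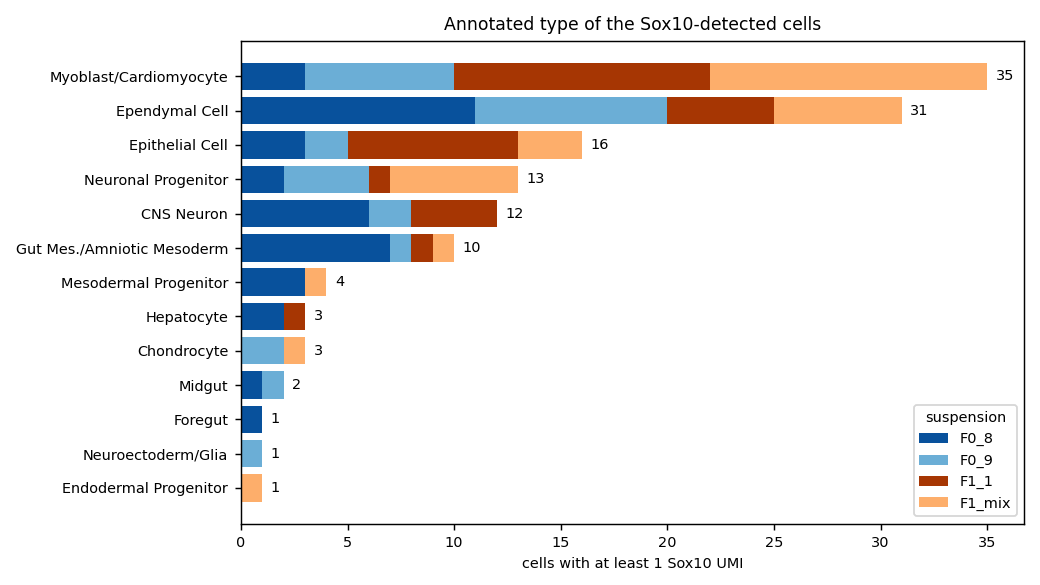
Number of cells with 1 or more Sox10 UMIs in each annotated type (bars from 0), stacked by suspension. Myoblast/Cardiomyocyte (35) and Ependymal Cell (31) hold the most, the first mainly from F1_1 and F1_mix and the second mainly from F0_8 and F0_9.

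Several of the 7 genes occurred together in these cells. Of the 132 Sox10 cells, 62.9% held Erbb3, 59.1% Fabp7, 55.3% Ednrb, 47.0% Foxd3, 44.7% Tfap2b, 40.9% Tfap2a and 1.52% Ret. Their median depth was 17626 UMIs against 11977 in the other cells. After thinning the shares were 39.0% against 2.18% for Erbb3, 51.2% against 18.6% for Fabp7 and 48.0% against 7.22% for Ednrb. For Foxd3 they were 30.1% against 1.82%, for Tfap2b 27.6% against 10.5% and for Tfap2a 22.8% against 7.29%. The counts that follow are not thinned. Of all cells, 273 held at least 3 of the 7 genes, and 75 of these held Sox10. In the Myoblast/Cardiomyocyte type the median cell held 5 of the 7 genes with Sox10 and 0 without it, and in Ependymal Cell 5 and 1. Foxd3, Erbb3, Fabp7 and Ednrb were all present in 25 of the 35 Sox10 cells of the first type and in 20 of the 31 of the second, while 3 and 1 cells held none of the 7. In CNS Neuron the medians were 2 and 1, and in Epithelial Cell 1 and 1.

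Within Myoblast/Cardiomyocyte, cells with and without Sox10 were summed per suspension and compared with the suspension as a block. A cell without a Sox10 UMI may still express the gene. Of 8968 genes tested, 417 were higher (4.65%) and 462 lower (5.15%) in the Sox10 cells by edgeR's quasi-likelihood test at a Benjamini-Hochberg adjusted p below 0.05, and 6 of the 7 members passed the filter on low counts, all of them higher. On the other side Tfap2b alone reached the level the filter asks for in 4 of 4 libraries, Erbb3 did so in 3, Fabp7 and Tfap2a in 2, Ednrb in 1 and Foxd3 in 0. These 5 therefore passed through the Sox10 side, where they are high, and neither the count nor their p-values are support. Ret, with 2 UMIs against 3, was not tested. The Sox10 sides held 3, 7, 12 and 13 cells in F0_8, F0_9, F1_1 and F1_mix, at a median depth of 24149 UMIs against 18191, and the part of depth was not tested.

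The level of Foxd3 in Sox10 cells was 2.28 and 1.28 in the founders F0_8 and F0_9 and 1.57 and 1.53 in F1_1 and F1_mix, against 0.0175, 0.0755, 0.00784 and 0 in the other cells of the type. The groups did not overlap, with a log2 fold change of 6.41 ± 0.51 (SE, n = 4 suspensions, edgeR adjusted p = 2.1e-08). Tfap2a was at 1.07, 0.378, 0.525 and 0.895 against 0.0931, 0.131, 0.0340 and 0.114, a log2 fold change of 2.99 ± 0.38 (edgeR adjusted p = 1.24e-05). Tfap2b was at 0.536, 0.831, 1.15 and 0.982 against 0.233, 0.398, 0.280 and 0.365. Its groups did not overlap either, but the difference was the smallest of the 6, with a log2 fold change of 1.52 ± 0.25 (edgeR adjusted p = 0.00026).

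Of the receptors, Ednrb was at 4.15, 1.66, 1.64 and 2.80 in Sox10 cells against 0.0407, 0.171, 0.0157 and 0.0198, a log2 fold change of 5.64 ± 0.43 (edgeR adjusted p = 1.07e-08). Erbb3 was at 1.07, 1.59, 1.47 and 1.73 against 0.215, 0.242, 0.0575 and 0.129, a log2 fold change of 3.45 ± 0.32 (edgeR adjusted p = 1.31e-07). The cells without Sox10 on the other side of this comparison include the 65 Erbb3 cells described above. Fabp7 was at 13.8, 6.42, 7.52 and 9.59 against 0.175, 0.312, 0.0601 and 0.0471, a log2 fold change of 6.20 ± 0.33 (edgeR adjusted p = 1.7e-10). After thinning, the shares of Sox10 cells with each gene were 74.3% for Fabp7, 54.3% for Erbb3 and for Ednrb, 42.9% for Foxd3, 28.6% for Tfap2b and 25.7% for Tfap2a.

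**Figure D4:**
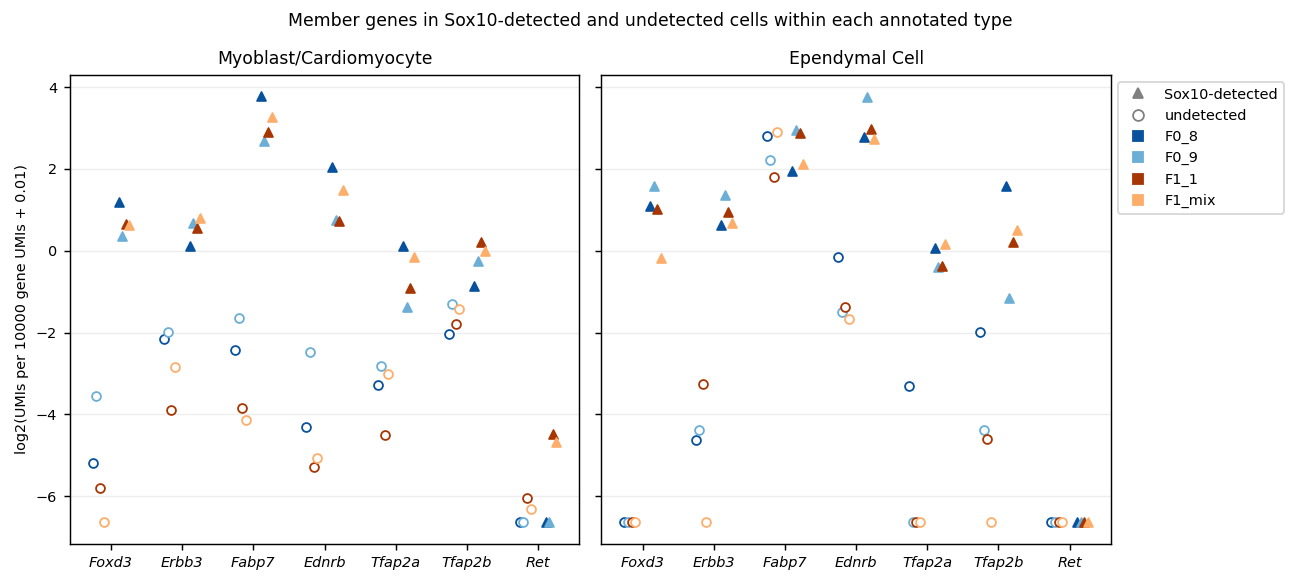
log2(level + 0.01) of the 7 genes in cells with Sox10 (filled triangles) and without it (open circles) of the Myoblast/Cardiomyocyte and Ependymal Cell types, one point per suspension coloured by suspension, with the level in UMIs per 10000 gene UMIs; the lowest points are levels of 0. Fabp7 separates the sides in Myoblast/Cardiomyocyte (6.42 to 13.8 against 0.0471 to 0.312) and not in Ependymal Cell (3.85 to 7.78 against 3.45 to 7.45).

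Glial genes were higher with the members in the same cells, and muscle genes were at 0 in them. Besides Foxd3 and Fabp7, the 10 largest differences among genes higher in 4 of 4 suspensions included Prdm12, a sensory lineage factor (log2 fold change 7.37), Insc (7.13), the crest cadherin Cdh19 (6.85), Gpr37 (6.72), Tmem132e (5.93) and Sox2 (5.76). Lgi4, a secreted Schwann cell signal, had 29 UMIs against 2, a ratio of 199.8 with a counting interval of 50.6 to 1728. Of the 7 genes of the Schwann cell precursor list other than Sox10, 6 were tested and 5 were called higher, among them Cdh19, Gfra3 and Itga4. Itga4 alone of these 3 reached the level of the filter on the other side, so this count is a description too. Among the genes lowest in the Sox10 cells, with 0 UMIs there, were the cardiac actin Actc1 (at least 59.1-fold lower against a floor of 3 UMIs over the side), the myogenic factor Myog (at least 42.9-fold), Ttn (at least 22.1-fold), the hindlimb factor Pitx1 (at least 20.6-fold) and Nbl1 (at least 15.0-fold). All 4 muscle genes were at 0 in the 35 cells, which allows a share of up to 8.57% of cells with a UMI for each.

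Genes of crest mesenchyme mostly fell. Of 11 tested genes of the cranial crest mesenchyme list, Dlx1 and Dlx2 rose and 7 fell, among them Prrx1, Msx1 and Twist1, whose level was 0.369 with Sox10 and 5.13 without. All 7 reached the level of the filter in 4 of 4 libraries of the other side. On the Sox10 side Msx2 did so in 0 libraries, Barx1, Dlx5 and Msx1 in 1, Prrx1 in 2, and Prrx2 and Twist1 in 3. Dlx1 reached it in 3 Sox10 libraries and 1 other, and Dlx2 in 4 and 2. These genes thus passed largely through the side where they are high, and the counts are a description. Of the 8 early neural crest genes, all tested, Ets1 rose and Msx1 and Twist1 fell. Of the radial glia list, Sox2, Nes and Hes5 rose out of 4 tested. Sox2 and Hes5 reached the level of the filter in 0 libraries of the other side, so their rise is a description, while Nes reached it in 4 of 4 on both sides. Among ligands and co-receptors of the members, 8 were tested: Erbb4, Gfra1 and Gfra3 rose, and Nrg1 and Edn3 fell. Erbb4 and Gfra1 reached the level of the filter in 4 of 4 libraries on both sides. Gfra3 did so in 0 libraries of the other side, and on the Sox10 side Edn3 in 0 and Nrg1 in 1. Gfra3, Edn3 and Nrg1 thus passed through the side where they are high and are a description. The 3 tested erythroid genes, Hba-a1, Hbb-bt and Hbb-y, fell too, their list summing to 0.715 with Sox10 and 9.91 without, and the part of red cell transcripts in the other differences was not tested.

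In Ependymal Cell, the comparison added after the first was seen, Foxd3 was found in the Sox10 cells alone and Erbb3, Ednrb and Tfap2a stood higher in them, while the levels of Fabp7 overlapped between the sides. Of 4389 genes tested, 287 were higher (6.54%) and 235 lower (5.35%) by the same test, and 5 of the 7 members passed the filter, all but Fabp7 through the Sox10 side, since Ednrb reached its level in 1 of 4 libraries on the other side and Foxd3, Erbb3 and Tfap2a in 0. Here too the p-values of these 4 are not support. The sides held 31 and 106 cells at median depths of 18409 and 11490. The level of Foxd3 in Sox10 cells was 2.14 and 2.99 in the founders F0_8 and F0_9 and 2.01 and 0.869 in F1_1 and F1_mix, 115 UMIs in all, against 0 UMIs in the 106 others, which allows a share of up to 2.83% of cells with a UMI. This was at least 87.6-fold higher against a floor of 3 UMIs over the side.

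Among the receptors in this type, Ednrb was at 6.84, 13.5, 7.87 and 6.63 against 0.886, 0.343, 0.377 and 0.305, a log2 fold change of 4.19 ± 0.32 (edgeR adjusted p = 2.99e-06). Erbb3 was at 1.53, 2.55, 1.92 and 1.58 against 0.0305, 0.0381, 0.0942 and 0, or 106 UMIs against 5, a ratio of 48.5 per gene UMI with an exact 95% counting interval of 20.1 to 152. The sides did not overlap for either gene. Tfap2a was at 1.04, 0.747, 0.767 and 1.11 against 0.0916, 0, 0 and 0, or 51 UMIs against 3, a ratio of 38.9 with a counting interval of 12.6 to 195. Tfap2b, at 2.99, 0.436, 1.15 and 1.42 against 0.244, 0.0381, 0.0314 and 0, did not pass the filter and was not tested, and Ret was at 0 in the Sox10 cells. Fabp7 was at 3.85, 7.78, 7.29 and 4.34 against 6.99, 4.61, 3.45 and 7.45. It was higher with Sox10 in 2 of 4 suspensions, with a log2 fold change of 0.08 ± 0.30 (edgeR adjusted p = 0.931).

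The genes with the largest differences in this type, besides Foxd3, included Egfl8 (179 UMIs against 0, at least 136-fold), Insc (at least 67.1-fold), Cdh19 (log2 fold change 6.20), Moxd1 (5.96), and Mef2c (5.90). The laminin Lama4 had 158 UMIs against 3, a ratio of 120.4 with a counting interval of 40.5 to 590.2, and Atp10b had 47 against 1, a ratio of 107 with an interval of 18.4 to 4334. All 5 tested genes of the Schwann cell precursor list were called higher, and none of them reached the level of the filter in any library of the other side, so this count is a description. The 5 genes with the largest differences in the other direction were at 0 in the 31 cells: Rspo3, a secreted WNT potentiator, was at least 71.1-fold lower, Vtn at least 39.9-fold, the dorsal neural tube factor Zic1 at least 33.2-fold, and Six3 and Otx2, factors of the forebrain, at least 28.9-fold and 28.1-fold. Lmx1a and Wnt1 of the roof plate list fell, as did Sox2 of the radial glia list. Of 5 tested early neural crest genes, Ets1 rose and Msx1, Sox9 and Zic1 fell. On the Sox10 side Lmx1a, Wnt1, Msx1 and Zic1 reached the level of the filter in 0 libraries, Sox9 in 2 and Sox2 in 3. Ets1 reached it in 0 libraries of the other side. These genes passed through the side where they are high, and their calls are a description. Dct, an enzyme of melanin synthesis, rose by a log2 fold change of 3.77 ± 0.79 (edgeR adjusted p = 0.00628) out of 3 melanoblast genes tested, and 338 of its 347 UMIs on the Sox10 side lay in 7 of the 31 cells.

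The difference between the 2 types was itself tested with an interaction term, also added after the data were seen. It called 202 of 6548 genes (3.08%), and of the 6 members that could be fitted, Fabp7 and Tfap2b. The effect for Fabp7 was lower in Ependymal Cell than in Myoblast/Cardiomyocyte by a log2 difference of -6.15 ± 0.56 (edgeR adjusted p = 6.7e-06), and that for Tfap2b higher by 2.85 ± 0.57 (edgeR adjusted p = 0.00903). Tfap2b did not pass the filter within Ependymal Cell, where its other side held 8, 1, 1 and 0 UMIs, so its value is a description only. Ednrb (-1.48, adjusted p = 0.323) did not pass, and no value is given for Foxd3, Tfap2a and Erbb3, which had 0, 3 and 5 UMIs on a side. In the listed genes, the effects for Sox2 (-7.07), Erbb4 (-4.67) and Nes (-1.78) were lower in Ependymal Cell and those for Itga4 (3.89), Nrg1 (3.0), Ets1 (2.45) and Fabp5 (1.71) higher. On a side of a type, Sox2, Itga4 and Ets1 reached the level of the filter in 0 libraries and Erbb4 and Nrg1 in 1, so their values are descriptions too. Nes and Fabp5 reached it in 4 libraries on every side. Hes5, a Notch target, was called too and is given by its UMIs, 34 with Sox10 and 15 without in Myoblast/Cardiomyocyte and 2 and 73 in Ependymal Cell. The levels of Fabp7 on the Sox10 sides were 8.76 in Myoblast/Cardiomyocyte and 5.75 in Ependymal Cell, and those on the other sides were 0.116 and 5.74.

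Marker genes showed that the Sox10 cells of different types were not alike. The 7 Schwann cell precursor genes other than Sox10 summed to 15.5 per 10000 in Ependymal Cell, 6.52 in Myoblast/Cardiomyocyte and 4.57 in Neuronal Progenitor. They summed to 1.10 in Epithelial Cell, 0.613 in Gut Mesenchyme/Amniotic Mesoderm and 0.101 in CNS Neuron. In the other cells of the first 2 types they stood at 0.425 and 0.462. The 12 sensory ganglion genes summed to 24.7 in the Sox10 cells of CNS Neuron and 7.57 in its other cells, and the cartilage genes Col2a1, Acan and Sox9 to 27.7 and 6.33 in Gut Mesenchyme/Amniotic Mesoderm. The surface ectoderm genes summed to 13.4 in the Sox10 cells of Epithelial Cell, below the 20.9 of its other cells.

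**Figure D5:**
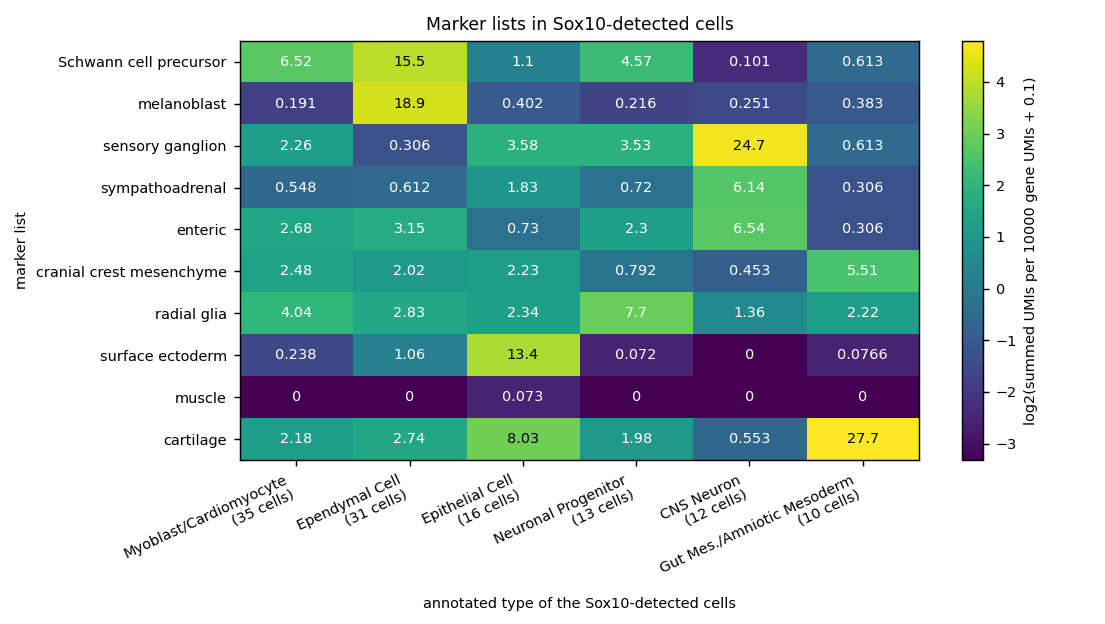
Summed level (UMIs per 10000 gene UMIs, printed in each field, colour on a log scale) of 10 marker lists in the Sox10 cells of the 6 annotated types that hold 10 or more of them. Schwann cell precursor genes reach 15.5 in Ependymal Cell, sensory ganglion genes 24.7 in CNS Neuron and cartilage genes 27.7 in Gut Mesenchyme/Amniotic Mesoderm.

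The 31 Sox10 cells of Ependymal Cell included cells with pigment genes. Of these, 7 held at least 2 of the pigment genes Dct, Pmel and Tyr, with 4 and 1 in the founders and 0 and 2 in F1_1 and F1_mix. Tyrp1, another enzyme of melanin synthesis, was at 0 UMIs in the 31 cells against 11 UMIs in 3 of the 106 without Sox10, which also held 155 UMIs of Pmel in 8 cells and 22 of Tyr in 4. The split was made on the pigment genes, and the values that follow are a description of 7 and 24 cells. Ednrb was at 7.62 in the pigment set and 9.26 in the rest, and Erbb3 at 1.47 and 2.02. Fabp7 was at 0.173 against 7.21 and Foxd3 at 0.606 against 2.46. The AP-2 genes went the other way, with Tfap2a at 2.08 against 0.614 and Tfap2b at 4.94 against 0.660, so that 57 of the 86 Tfap2b UMIs of the 31 cells came from these 7. Mitf, the melanocyte regulator, was at 5.80 against 0.273 and the receptor Kit, required by melanoblasts, at 3.98 against 0.114. Dct, on which the split was made, was at 29.3 against 0.205, where the Ependymal Cell cells without Sox10 stood at 0.331.

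In Neuronal Progenitor, the 13 Sox10 cells held Fabp7 at 32.9 against 13.8 in the other cells of the type, Ednrb at 4.25 against 1.35, Erbb3 at 1.55 against 0.00244 and Foxd3 at 0.900 against 0.00244. They also held the crest and dorsal neural tube factor Pax3 at 4.79, Hes5 at 2.34 and Sox2 at 2.23. The radial glia list, which holds Hes5 and Sox2, was lower in them than in the other cells, at 7.70 against 13.3. The early neural crest list, which holds Pax3, summed to 5.58 against 6.74. Fabp7, Ednrb, Erbb3 and Foxd3 were thus higher with Sox10 in this type, as were Tfap2a (0.612 against 0.0280) and Tfap2b (1.33 against 0.162). No test was run, since the cells per suspension are few.

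The Sox10 cells of the other types held other members. The 12 of CNS Neuron held 0 UMIs of Erbb3, which allows a share of up to 25% of cells with a UMI, and Foxd3 at 0.251 against 0.304 in the other cells. Tfap2a was found in 58.3% against 33.7% of cells, Tfap2b in 58.3% against 34.0% and Fabp7 in 66.7% against 48.3%, at median depths of 16335.5 and 10848. After thinning these shares were 18.2% against 26.8%, 36.4% against 31.2% and 54.5% against 35.7%. The levels were 0.704 against 0.977 for Tfap2a, 1.86 against 3.39 for Tfap2b and 1.76 against 2.0 for Fabp7, beside the sensory neuron genes Isl1 at 9.20, Pou4f1 at 5.53 and Tlx3 at 3.42. The 16 of Epithelial Cell held no Foxd3 or Fabp7, Tfap2a at 0.0365 against 0.681 and Tfap2b at 0.475 against 1.88, all 13 UMIs in 1 cell, but Erbb3 at 1.24 against 0.399. All 16 held the epithelial adhesion gene Epcam, and Lmx1a (2.85) and Pax2 (2.05), genes of the otic vesicle among other places, were present. The 10 of Gut Mesenchyme/Amniotic Mesoderm, 7 of them from F0_8, held 0 UMIs of Foxd3 and 1 of Erbb3, beside the cartilage collagen Col2a1 at 15.7 and Sox9 at 11.2.

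The ligands and co-receptors of the 3 receptors were spread over several types. Nrg1, the ligand of Erbb3, was highest in Neuroectoderm/Glia (5.17), where Erbb3 was at 0.00336, and reached 1.71 in Gut Mesenchyme/Amniotic Mesoderm. Nrg2, another neuregulin, was at 0.274 in Ependymal Cell, the leading type of Erbb3, and at 0.232 in Neuroectoderm/Glia, with overlapping intervals, and Edn2 had 6 UMIs in all, 2 of them there. Erbb2, the partner of Erbb3, was at 0.267 in Epithelial Cell and at 0.191 in Chondrocyte, with overlapping intervals. Edn3, the ligand of Ednrb, gave 574 UMIs, with 0.177 in Chondrocyte and 0.159 in Myoblast/Cardiomyocyte, and Ednra, the related receptor, was highest in Gut Mesenchyme/Amniotic Mesoderm (1.18). Gdnf, a ligand of Ret, was at 0.0696 in the same type and at 0.0620 in Epithelial Cell, with overlapping intervals, its co-receptor Gfra1 in CNS Neuron (1.73) and the artemin co-receptor Gfra3 in Ependymal Cell (0.471). Of the paralogs, Fabp5 was highest in Erythroblast (13.6) and CNS Neuron (12.7), Tfap2c in Neuronal Progenitor (0.196, overlapping the 0.171 of Epithelial Cell), and Tfap2d and Tfap2e in CNS Neuron (0.332 and 0.142).

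Across the same 36 combinations of type and suspension, the genes with the pattern most like each member by Pearson correlation of log2(level + 0.1) were found. For Ednrb they were Wnt8b (0.948), Wnt1 (0.901) and Fgf17 (0.897), and for Fabp7 Ttyh1 (0.926), Fgf15 (0.924) and Rfx4 (0.922). For Foxd3 they were Pdp1 (0.853), Ajap1 (0.849) and Srp14 (0.841), for Erbb3 Sntb1 (0.896), Sh3tc2 (0.861) and Spry1 (0.856), and for Ret Tnr (0.874), Nkx1-1 (0.871) and Nptxr (0.861). Coro2a followed the AP-2 partner for Tfap2a (0.886) and for Tfap2b (0.881), and Baz2a (0.863) and Abcg1 (0.841) came next. Among the members, Fabp7 and Ednrb correlated at 0.870 and Foxd3 and Erbb3 at 0.18. The points share the capture, and these values are descriptions.

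The founders and F1 suspensions were compared in the 9 deep types with at least 20 cells in each suspension, which gave 63 pairs of a member and a type. Of these, 40 passed the filter and 0 were called by edgeR's quasi-likelihood test, with 7 (17.5%) at an unadjusted p below 0.05 against 10.3% of the pairs over all genes, and 0 by DESeq2. Over all genes, 665 of 88429 pairs were called (0.752%), and of 496 tested pairs with a gene of the marker lists 10 were higher and 9 lower in founders. Of these 7, 4 lay in the leading type of the gene and 3 in Gut Mesenchyme/Amniotic Mesoderm. Ednrb in Ependymal Cell was at 2.87 and 5.34 in the founders and 2.22 and 1.95 in F1, a log2 difference of 0.96 ± 0.27 (SE, edgeR adjusted p = 0.391), and Foxd3 was at 0.713 and 1.14 against 0.497 and 0.226, a log2 difference of 1.34 ± 0.40 (edgeR adjusted p = 0.409). The groups did not overlap for either gene, and the call depends on F1_1. Without it both were called, at log2 differences of 1.04 (edgeR adjusted p = 0.00433) and 1.98 (edgeR adjusted p = 0.0015), but F1_mix is then the only F1 suspension and is assumed to vary like the founders, so these values do not stand for a difference. The share of Sox10 cells in this type moved with them, 27.5% and 28.1% in the founders against 15.6% and 18.2%, and its part in the difference was not tested. Tfap2b in CNS Neuron differed by 0.38 ± 0.11 (edgeR adjusted p = 0.197) and Fabp7 in Neuronal Progenitor by 0.27 ± 0.08 (edgeR adjusted p = 0.173), both higher in both founders. With no filter on low counts these 4 were called. In Gut Mesenchyme/Amniotic Mesoderm, where the group levels were at most 0.082, the log2 differences were -1.50 ± 0.50 for Ednrb, 1.23 ± 0.48 for Erbb3 and -1.08 ± 0.45 for Fabp7 (edgeR adjusted p = 0.235, 0.330 and 0.369).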

How the data were processed

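Cells of 4 transgenic mouse embryo suspensions were labelled with CellPlex oligonucleotides and captured as one droplet pool, and the 2 deposited samples are its expression and oligonucleotide libraries. The authors deposited UMI counts per gene and cell for each suspension (Cell Ranger 7.2.0 per the file headers, GRCm38 with EGFP added) and a cell table with suspension and cell type, from which 3 columns were used and 19 were not. The matrices hold raw counts, not values after the correction of free RNA or the noise reduction that the study names. Doublets were removed by the authors before the cell table was made, and no further caller was run.

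Cells in the table were used as deposited. The 7 genes, the marker lists and the comparisons were chosen with earlier results of these data known. Levels are UMIs per 10000 gene UMIs with exact 95% Poisson intervals, and shares carry exact 95% Clopper-Pearson intervals, which cover counting error only. Where 0 cells held a gene, the limit given is 3 cells of the total, a limit on cells with a UMI and not on cells that express the gene. Thinning drew 5000 UMIs per cell and left out shallower cells. Summed counts were tested with edgeR 4.0.16 in R 4.3.3 (quasi-likelihood, TMM, filterByExpr, Benjamini-Hochberg over all genes tested, threshold 0.05), with DESeq2 1.42.0 as an alternative, and the fit was tested on simulated data. SEs are the log2 fold change divided by the square root of the F statistic. Where a side held 1 to 3 UMIs, and for Erbb3 in Ependymal Cell with 5, the ratio is given with an exact counting interval in place of the fitted fold. Cdh19 in Ependymal Cell and Prdm12 in Myoblast/Cardiomyocyte, also with 5 UMIs on the other side, are given by the fitted fold. Sox10 comparisons carried the suspension as a block, since both sides of a pair come from one suspension. A Sox10 cell held 1 or more Sox10 UMIs. Types entered the founder comparison with 20 or more cells in every suspension and a median of 5000 or more UMIs. Named genes were the members, the called genes of the lists or those highest in the cells described, the 3 genes most correlated with each member, and in the Sox10 comparisons the 10 largest higher and 5 largest lower differences with one direction in 4 of 4 suspensions. Marker genes given beside a member within a type were picked from the lists after their values were seen. Python 3.11.15, pandas 2.3.3, numpy 2.4.6 and scipy 1.17.1 did the remaining sums. Alternatives were no block, other size factors, DESeq2, no filter on low counts, a limit of 2 UMIs, thinning, a limit of 5% mitochondrial UMIs, another denominator, equal weights and leaving out each suspension. RefSeq promoters were matched by symbol. No protein sequence was used, and some genes are not reported here.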

Additional observations from a re-analysis of the deposited data

Results flagged for a closer look

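The effect of Sox10 detection on Fabp7 differed between the annotated types, by a log2 difference of -6.15 in Ependymal Cell relative to Myoblast/Cardiomyocyte in the interaction test, and that on Tfap2b by 2.85, the latter with 8, 1, 1 and 0 UMIs on a side and so a description only. Of the Sox10 side of Ependymal Cell, 57 of 86 Tfap2b UMIs came from the 7 cells with pigment genes.

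Sox10 was also present among deposited barcodes that the cell table does not list. In 328 such barcodes (median 859 gene UMIs) there were 39 Sox10 UMIs, above the floor of 3 UMIs, in 9 barcodes (2.74%, exact 95% interval 1.26 to 5.14%). The same barcodes held 32 UMIs of Foxd3, 53 of Erbb3, 306 of Ednrb, 1731 of Fabp7, 37 of Tfap2a, 71 of Tfap2b and 28 of Ret. This look at barcodes outside the table was chosen after seeing the data.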

How the results depend on the processing

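With no replicate block, 886 genes in Myoblast/Cardiomyocyte and 571 in Ependymal Cell were called between cells with and without Sox10, against 879 and 522 with it; the block changed no call on a member. With DESeq2 the counts were 603 and 358, with no filter 1192 and 1222, with 2 or more Sox10 UMIs 1051 in Myoblast/Cardiomyocyte, and leaving out each suspension gave 511 (without F1_mix; 585 without F1_1) to 874 and 399 to 538. Between founders and F1, 418 pairs were called with DESeq2 and 2981 with no filter, against 665, and 444 to 1458 when a suspension was left out, which leaves 1 suspension in an arm that is assumed to vary like the other arm (1415 without F0_9, 1172 without F1_1, 1458 without F1_mix). The count of member pairs called rose from 0 to 4 with no filter (Tfap2b in CNS Neuron, Foxd3 and Ednrb in Ependymal Cell, Fabp7 in Neuronal Progenitor), and to 3 without F1_1 (Foxd3 and Ednrb in Ependymal Cell, Tfap2b in Mesodermal Progenitor) and 1 without F1_mix (Fabp7 in Mesodermal Progenitor), with 0 when a founder was left out. Shares of cells moved with thinning and with a limit of 2 UMIs: Erbb3 in Ependymal Cell from 24.1% to 12.6% and 17.5%, Fabp7 in Neuronal Progenitor from 87.6% to 81.0% and 81.2%, Ednrb in Ependymal Cell from 43.1% to 31.9% and 29.9%, and Tfap2a in CNS Neuron from 34.2% to 26.6% and 23.5%. The share of Sox10 cells in Ependymal Cell moved from 23.5% to 33.8% with thinning and to 31.9% for cells chosen by 2 or more of 4 genes of the Schwann cell precursor list. After thinning Ependymal Cell held 26 of 77 Sox10 cells and Myoblast/Cardiomyocyte 25, which reversed the order of these types. The cause of these moves was not tested. The leading type of Tfap2b became Midgut, a shallow type, among cells with under 5% mitochondrial UMIs. Leaving out suspensions, other denominators and equal weights kept the leading type of every member. The remaining values kept their direction and side of the threshold. With at most 13 Sox10 cells per suspension and type, and 67 Ret UMIs in all, smaller differences may have gone undetected at this depth.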
